A study of Mus musculus with 9 samples.

Results

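Vegfa, Vegfb, Vegfc, Pgf, Angpt2, Angptl4, Nrp1 and Nrp2, 8 secreted angiogenic factors and neuropilin receptors, were followed by name among the 52459 genes measured by RNAseq in LepR+ skeletal stem and progenitor cells (SSPCs). All 8 had reads in every library and passed the filter on low values. The cells came from 3 conditions with 3 libraries each. Young C57B6 mice were 12 weeks old, middle-aged C57B6 mice were 52 weeks old, and the treated mice were middle-aged mice of 52 weeks given sodium salicylate, a salt of salicylic acid with anti-inflammatory action. The dose, route and duration of salicylate are not given in the sources used here. LepR, the leptin receptor, marks perivascular stromal cells of the adult marrow, and the cells were obtained from tibiae and femurs by collagenase digestion, removal of the hematopoietic compartment and flow cytometric sorting. Which animals stand behind the replicates is unstated, so the p-values cover no more than the spread among these libraries, which may be technical.

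Vascular endothelial growth factors (VEGFs) are secreted proteins that bind receptor tyrosine kinases on blood and lymphatic endothelial cells and drive vessel growth. Neuropilins are transmembrane co-receptors that bind VEGFs together with those receptors and class 3 semaphorins together with plexins. Angiopoietins act on the endothelial receptor Tek and control the stability of vessels, and in bone marrow the LepR+ stromal cells lie around sinusoids and arterioles and are a source of such factors.

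The libraries held 9902613 to 20746804 reads and 16178 to 22540 genes with a read. Middle-aged replicate 3 stood apart, with the fewest reads, the fewest genes with a read and 32.6% of its reads on antibody genes, against 0.107% to 16.5% in the other 8 libraries. It was the lowest library for 7 of the 8 members, with 13 (Pgf) to 305 (Nrp1) reads for a member, and the fold changes of these members and the medians of the gene lists are also given without it where it moved them by over 1.5 times or changed a call. The cells carried the gene that defined the sort. Lepr itself stood at 78029 to 102235 normalized counts (young), 14455 to 57603 (middle-aged) and 59657 to 75958 (treated). The summed level of 7 pan-leukocyte markers was 2928 to 4415 normalized counts in young cells, 11432 to 26075 in middle-aged cells and 10436 to 11928 in treated cells. The summed level of 12 endothelial markers stayed at 256 to 861 normalized counts in all 9 libraries. In bulk samples, fewer cells of a type and less RNA per cell cannot be told apart.

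The members lie on 5 chromosomes of the mouse genome (GRCm38, GENCODE release M21), and all are protein-coding genes. Chromosome 17 holds Vegfa (46016993 to 46032369) and Angptl4 (33773750 to 33781830), both transcribed from the minus strand. Chromosome 8 holds Vegfc (54077606 to 54187096) and Nrp1 (128358604 to 128503363), transcribed from the plus strand, and Angpt2 (18690263 to 18741562), transcribed from the minus strand. Vegfb is found at 6982473 to 6987651 of chromosome 19, minus strand, and Pgf at 85166635 to 85177790 of chromosome 12, minus strand. Nrp2 is found at 62703285 to 62818695 of chromosome 1, plus strand. No exon of the members overlapped an exon of another gene, except 80 bp of Nrp1 shared with Mir1903.

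The promoter sequences of 6 members were matched in RefSeq (GRCm38.p6), and Angpt2 and Angptl4 had no match. The 250 bases before the annotated start of Vegfa and Pgf, the members with the smallest p between young and middle-aged cells, and of Vegfb, the member with a higher mean in middle-aged cells, are shown 5′ to 3′ along the gene. Where a gene had several annotated starts, the most upstream was used. The RefSeq start of Pgf lay 477 bases inside the gene as GENCODE places it, so its window lies within those bounds, while that of Vegfa lay 8 bases before the GENCODE start and that of Vegfb at it. Capitals mark the GC box GGGCGG, searched on both strands.
Vegfa, chr17:46032378-46032627, minus strand: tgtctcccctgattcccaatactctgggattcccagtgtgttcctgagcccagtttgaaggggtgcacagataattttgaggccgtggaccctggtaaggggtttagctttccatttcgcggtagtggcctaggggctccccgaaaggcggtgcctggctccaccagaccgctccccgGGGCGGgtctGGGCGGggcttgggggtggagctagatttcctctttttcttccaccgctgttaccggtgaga
Pgf, chr12:85177314-85177563, minus strand: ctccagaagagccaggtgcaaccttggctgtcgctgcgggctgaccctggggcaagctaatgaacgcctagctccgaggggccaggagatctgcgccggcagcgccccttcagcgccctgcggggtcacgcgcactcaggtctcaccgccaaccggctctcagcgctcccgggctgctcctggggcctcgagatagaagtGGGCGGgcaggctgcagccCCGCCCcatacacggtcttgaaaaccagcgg
Vegfb, chr19:6987652-6987901, minus strand: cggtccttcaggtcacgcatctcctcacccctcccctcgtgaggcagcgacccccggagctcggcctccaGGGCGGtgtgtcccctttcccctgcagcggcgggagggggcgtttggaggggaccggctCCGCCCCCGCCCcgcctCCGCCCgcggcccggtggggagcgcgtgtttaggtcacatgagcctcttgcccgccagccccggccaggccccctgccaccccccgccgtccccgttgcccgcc
The Vegfa window held 2 GC boxes, 62 and 72 bases before the start. The Pgf window also held 2, at 31 and 50 bases, and the Vegfb window held 4 between 104 and 180 bases before the start. A GC box was found in all 6 matched windows and in 32.7% of the 32851 windows of the same length in the table. ACGTG, a form of the core of the hypoxia response element, was found in 0 of the 6 windows and in 16.6% of all windows. Its other form, GCGTG, was not counted, and with both strands considered it is present in the Pgf and Vegfb windows shown. TATAAA was found in 0 of the 6 windows and in 12.4% of all windows. The windows of the members had 59.2% (Vegfa) to 76.4% (Vegfb) G and C, against a median of 52.4% over all windows. A match to these letters is a description of the sequence and not a measured binding site.

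Levels of the members were compared with each other per length, as normalized counts per kb of the longest annotated transcript. The order over all 9 libraries was Vegfc, Nrp1, Angptl4, Nrp2, Vegfa, Pgf, Angpt2 and Vegfb. In young cells, Vegfc, the growth factor of lymphatic vessels, reached 1475 ± 199 normalized counts per kb (SD, n = 3) and lay above 97.3% of the 14634 tested genes with a length when all 9 libraries were averaged. Angptl4 in young cells stood at 1240.3 ± 321 normalized counts per kb and Nrp1 at 1078 ± 37.4 normalized counts per kb. Vegfa in young cells stood at 609.9 ± 120.0 normalized counts per kb. The lowest member was Vegfb, at 56.3 ± 18.2 normalized counts per kb in young cells and above 62.9% of the genes tested per length over all libraries.

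Within libraries, Vegfc exceeded Vegfa in 9 of 9 libraries by 2.87-fold on average (exact two-sided sign-flip permutation test, adjusted p = 0.00608 over 28 pairs of members, the smallest adjusted p among them). Nrp1 exceeded Nrp2 in 9 of 9 libraries by 2.12-fold (exact sign-flip permutation test, adjusted p = 0.00608). This difference depends on the lengths. Without division by length, Nrp1 made up 48.2% of the counts of both in middle-aged replicate 1 and 50.6% to 64.2% in the other libraries. Among neighbours in the order, Vegfc lay above Nrp1 by 1.34-fold in 8 of 9 libraries (exact permutation, adjusted p = 0.0104) and Vegfa above Pgf by 3.06-fold in 9 of 9 libraries (exact permutation, adjusted p = 0.00608). The other 5 neighbouring pairs did not differ beyond their spread (exact permutation, adjusted p from 0.114 to 0.953), and 21 of the 28 pairs passed the test. The order depends on the length used. With the length of all merged exons, Angptl4 lay above Nrp1, Vegfa above Nrp2 and Angpt2 above Pgf.

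**Figure D1:**
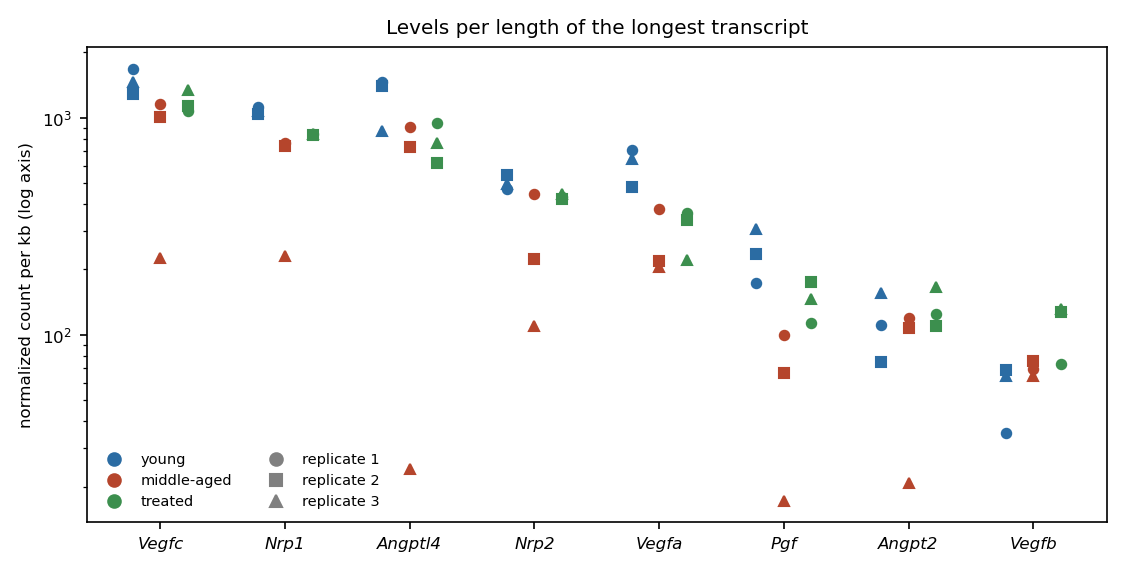
Normalized counts per kb of the longest transcript (log axis) of the 8 members, in order of their mean log2 level, with 1 point per library, colored by condition and shaped by replicate number. Vegfc lies highest and Vegfb lowest, and middle-aged replicate 3 lies lowest for every member but Vegfb.

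The comparison of middle-aged with young cells asked how the members differed with age. In the test across 14998 genes (limma on log2 of the normalized count plus 1, Benjamini-Hochberg adjusted p under 0.05), 0 of the 8 members passed, against 3.01% of all genes. At an unadjusted p under 0.05, 5 of the 8 members were lower in middle-aged cells (Vegfa, Vegfc, Pgf, Nrp1 and Nrp2), against 13% of all genes tested in that direction, and 0 were higher, against 10.4%. On the recovered reads, edgeR called 0 of the 8 members, against 2.29% of all genes, and DESeq2 called Vegfa and Pgf, against 11% of all genes. In the same 5 genes every middle-aged library lay below every young library, which was so for 15.1% of all genes. The median log2 fold change of the 8 members was -1.19, against -0.08 over all genes tested, and 7 of the 8 values were below 0, against 53.6% of all genes. Without middle-aged replicate 3, the median of the members was -0.55, against -0.029 over all genes, and limma called Vegfa and Pgf, against 5.5% of all genes.

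Vegfa encodes the main growth factor of blood vessel endothelium. Vegfa counted 2452, 1647 and 2216 normalized counts in the 3 young libraries, 1309, 751 and 707 in the middle-aged libraries and 1251, 1169.95 and 766 in the treated libraries. All middle-aged and all treated libraries lay below the lowest young library, and the middle-aged and treated libraries overlapped. Middle-aged cells were 2.34-fold lower than young cells, a log2 fold change of -1.23 ± 0.30 (SE), with a 95% interval of -1.89 to -0.57 and an adjusted p of 0.0541 in limma, just above the threshold. Without middle-aged replicate 3, the log2 fold change was -1.07 and the adjusted p in limma was 0.0412.

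Treated cells had a log2 fold change of Vegfa of 0.23 ± 0.30 (SE) against middle-aged cells, with a 95% interval of -0.43 to 0.89 and an adjusted p of 0.749 in limma, and 0.067 without middle-aged replicate 3. Against young cells it was -0.998 ± 0.30 (SE), with an interval of -1.66 to -0.34, an unadjusted p of 0.00682 and an adjusted p of 0.327 in limma. Vegfa thus had the smallest p of the 8 members against young cells both in untreated and in treated middle-aged cells, and both comparisons used the same 3 young libraries. In a fit of the treated and young libraries alone, its adjusted p in limma was 0.0276, and that fit called 2.87% of all genes.

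Pgf, placental growth factor, is a ligand of the VEGF receptor Flt1. Pgf counted 359.6, 489 and 639.9 normalized counts in young cells, 206, 138 and 35.8 in middle-aged cells and 236, 363 and 304 in treated cells. Every middle-aged library was lower than every young and every treated library, while young and treated libraries overlapped narrowly at 359.6 and 363. Middle-aged cells were 4.75-fold lower than young cells, a log2 fold change of -2.25 ± 0.55 (SE), with an interval of -3.46 to -1.04 and an adjusted p of 0.0543 in limma. Without middle-aged replicate 3, which had 13 reads of Pgf, the log2 fold change was -1.51 and the adjusted p 0.0161 in limma. Treated cells had a log2 fold change of 1.55 ± 0.55 (SE) against middle-aged cells, with an unadjusted p of 0.0171 and an adjusted p of 0.496 in limma, and without that library it was 0.81. Against young cells the log2 fold change of treated cells was -0.70, with an interval of -1.91 to 0.51.

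Vegfc encodes the ligand of Flt4, the receptor of lymphatic endothelium, which marrow sinusoids also carry. Vegfc counted 4116, 3142 and 3577 normalized counts in young cells, 2819.95, 2462 and 553 in middle-aged cells and 2619, 2763 and 3264 in treated cells. Middle-aged libraries lay below young libraries without overlap, and middle-aged replicate 3 was 4.45-fold below the next library of its group. The log2 fold change with age was -1.20 ± 0.50 (SE; unadjusted p = 0.0351, adjusted p = 0.181 in limma), and -0.45 without that library. Treated against middle-aged cells gave 0.87 (adjusted p = 0.503 in limma), and 0.12 without that library.

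Vegfb encodes a further ligand of Flt1, linked to fatty acid uptake and the survival of vessels rather than to their sprouting. Vegfb counted 45.3, 88.0 and 83.1 normalized counts in young cells, 89.1, 96.8 and 82.5 in middle-aged cells and 94.2, 164 and 168 in treated cells. Unlike the other members, it did not have its lowest value in middle-aged replicate 3, and all treated libraries lay above all young libraries. The log2 fold change was 0.36 with age (adjusted p = 0.632 in limma). It was 0.98 ± 0.43 (SE) in treated against young cells, with an interval of 0.04 to 1.92, an unadjusted p of 0.0426 and an adjusted p of 0.687 in limma.

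**Figure D2:**
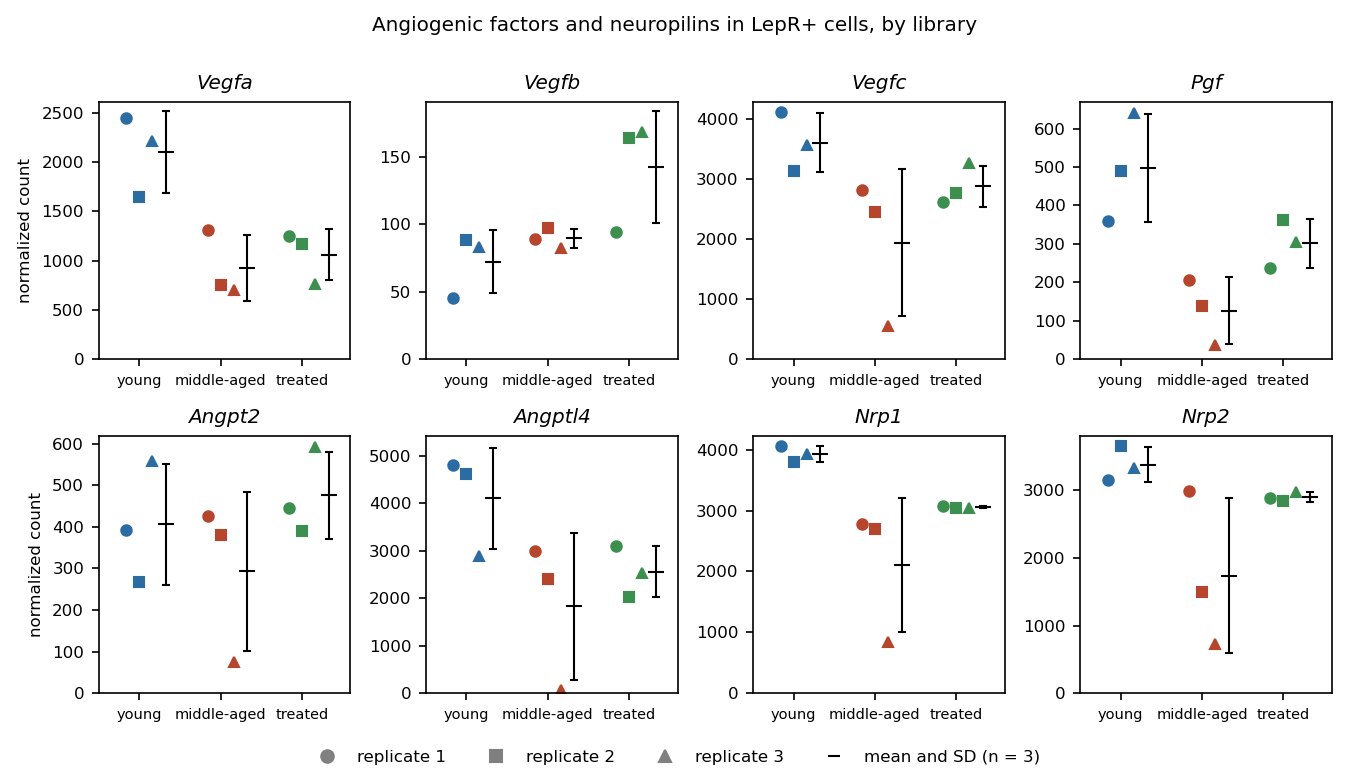
Normalized counts (linear axes from 0) of each member in the 3 libraries of each condition, with the mean and SD of the 3 libraries as a black bar beside the points. Young libraries lie above middle-aged libraries without overlap for Vegfa, Vegfc, Pgf, Nrp1 and Nrp2, and middle-aged replicate 3 (triangle) is the lowest library for every member but Vegfb.

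The makeup of the VEGF ligands was described as the share of each in the sum of Vegfa, Vegfb, Vegfc and Pgf per kb. Vegfc made up 61.9% ± 2.83 of this sum in young cells (SD, n = 3), 61.8% ± 15.7 at 52 weeks without and 67.5% ± 4.66 with salicylate. The young libraries ranged from 59.0% to 64.7%. The middle-aged libraries stood at 67.8%, 73.7% and 44.1%, so their mean was near that of young cells only through replicate 3. Vegfa made up 27.3%, 23.1% and 25.9% in the young libraries, 22.3%, 15.9% and 40.0% in the middle-aged libraries and 22.4%, 19.2% and 12.1% in the treated libraries. Every treated library was below every young library, and the middle-aged libraries spread over both. The difference between treated and young cells was -7.58 percentage points (exact two-sided permutation test, p = 0.1, the smallest that 3 against 3 libraries allow, adjusted p = 0.6 over 6 tests). The share of Pgf averaged 10.2% (young), 4.69% (middle-aged) and 8.29% (treated), and that of Vegfb 2.44%, 7.40% and 6.31%. The Vegfb share was 4.09%, 5.54% and 12.6% in the middle-aged libraries, so that its mean lay above that of treated cells only through replicate 3.

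**Figure D3:**
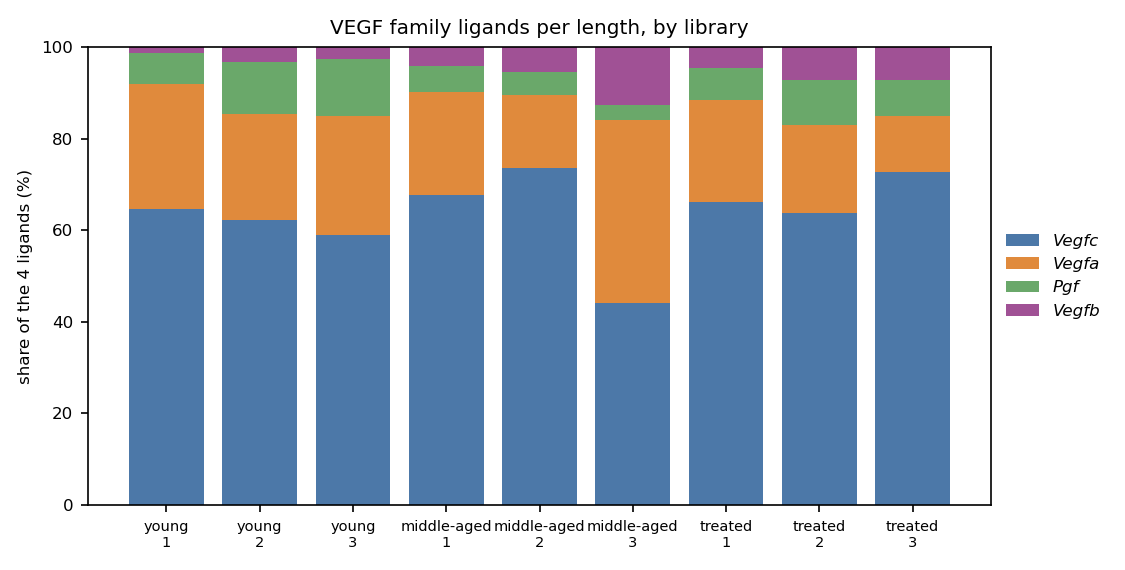
Share of Vegfc, Vegfa, Pgf and Vegfb in their sum of normalized counts per kb, in percent, with 1 stacked bar per library. Vegfc is the largest share in all 9 libraries, at 44.1% to 73.7%, and the Vegfa share of 40.0% in middle-aged replicate 3 is the highest.

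Neuropilins were the most even of the members in young and treated cells. Nrp1, the co-receptor of VEGF-A and of semaphorin 3A, counted 4064, 3791 and 3927 normalized counts in young cells, 2777, 2696 and 839 in middle-aged cells and 3072, 3035 and 3048 in treated cells. The 3 conditions did not overlap, with young cells highest, treated cells between and middle-aged cells lowest. The log2 fold change with age was -1.09 ± 0.39 (SE; unadjusted p = 0.0172, adjusted p = 0.135 in limma), and -0.52 without middle-aged replicate 3 (adjusted p = 0.0669 in limma). Treated cells had a log2 fold change of 0.73 against middle-aged cells (adjusted p = 0.496 in limma), 0.16 without that library, and -0.36 against young cells.

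Nrp2, the co-receptor of VEGF-C and of semaphorin 3F, counted 3151, 3653 and 3333 normalized counts in young cells, 2984, 1502 and 734 in middle-aged cells and 2888, 2842 and 2977 in treated cells. Young libraries lay above all middle-aged and all treated libraries, and middle-aged replicate 1 lay just above the treated libraries. The log2 fold change with age was -1.18 ± 0.40 (SE; unadjusted p = 0.0128, adjusted p = 0.123 in limma), and -0.67 without middle-aged replicate 3. Treated against middle-aged cells gave 0.96 ± 0.40 (SE; unadjusted p = 0.0338, adjusted p = 0.496 in limma), and 0.45 without that library. Without middle-aged replicate 1, Nrp1 and Nrp2 were both called lower with age, with adjusted p of 0.0441 and 0.00945 in limma, beside Vegfa at 0.0120 and Pgf at 0.0127. That fit called 14.2% of all genes in either direction, with 1251 of 14998 lower.

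Of the neuropilin reads per kb, Nrp1 made up 68.2% ± 2.37 in young cells, 69.3% ± 6.92 in middle-aged cells and 66.0% ± 0.524 in treated cells (SD, n = 3). None of the 3 differences passed (exact two-sided permutation test, p from 0.3 to 0.9, adjusted p from 0.9 to 1 over 6 tests). The middle-aged libraries spread the most and ranged from 63.2% to 76.8%.

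Angpt2 encodes an angiopoietin that can block the action of angiopoietin 1 on Tek. Angpt2 counted 393, 267 and 557 normalized counts in young cells, 425, 380.4 and 74.3 in middle-aged cells and 445, 391 and 593 in treated cells. The conditions overlapped, and middle-aged replicate 3 alone stood low. The log2 fold change with age was -0.76 ± 0.58 (SE; adjusted p = 0.449 in limma) with that library and 0.051 without it. Treated against middle-aged cells gave 1.03 (adjusted p = 0.501 in limma), and 0.22 without that library.

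Angptl4 encodes a secreted inhibitor of lipoprotein lipase that also acts on vessels. Angptl4 counted 4812, 4615 and 2882 normalized counts in young cells, 3002, 2410.5 and 79.8 in middle-aged cells and 3109.7, 2037 and 2531 in treated cells. Middle-aged replicate 1 lay above young replicate 3, and middle-aged replicate 3, with 29 reads, lay 30.2-fold below the next library of its group. The log2 fold change with age was -2.26 ± 1.06 (SE; adjusted p = 0.226 in limma) and -0.57 without that library. Treated against middle-aged cells gave 1.59 (adjusted p = 0.535 in limma), and -0.093 without that library.

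In treated against middle-aged cells, the comparison that asked how cells differed with salicylate at 52 weeks, all 8 log2 fold changes were above 0. Of all genes, 45.3% lay below 0. The median of the members was 0.92, against 0.09 over all genes. Without middle-aged replicate 3 the median of the members was 0.19, and Angptl4 was at -0.093. By limma 0 of the 8 members passed, against 0% of all 14998 genes, and at an unadjusted p under 0.05 there were 2 higher (Pgf and Nrp2), against 6.38% of all genes in that direction. edgeR and DESeq2 called 0 of the 8 members as well, against 0% and 0.293% of all genes. Pgf and Nrp1 were higher in treated cells without overlap, against 8.19% of all genes in that direction.

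In treated against young cells, limma called 0 of the 8 members, against 0.207% of all genes, and edgeR and DESeq2 called 0, against 0.0133% and 1.99% of all genes. At an unadjusted p under 0.05, Vegfa was lower, as were 1.85% of all genes, and Vegfb was higher, as were 5.07%. Vegfa, Nrp1 and Nrp2 lay below the young libraries without overlap, against 9.9% of all genes in that direction, and Vegfb lay above them, against 8.99%. The median of the 8 log2 fold changes was -0.34, against -0.01 over all genes. The 3 comparisons share libraries in pairs, so their values are not independent of each other. In the moderated F test of limma over the 3 conditions, the adjusted p of the members was 0.126 (Vegfa) at the lowest, and 0.647% of all genes passed.

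The 10 genes that mark the LepR+ stroma of the marrow (Lepr, Cxcl12, Kitl, Ebf3, Foxc1, Pdgfra, Pdgfrb, Vcam1, Il7 and Adipoq) were displaced in the same directions as most members. In all 10, every middle-aged library lay below every young library, against 15.1% of all genes. Their median log2 fold change was -1.42 with age, 0.88 in treated against middle-aged cells and -0.52 in treated against young cells. By limma 0 of the 10 were called with age, with 9 lower at an unadjusted p under 0.05, against 13% of all genes. edgeR called 0 and DESeq2 7, against 2.29% and 11% of all genes. Without middle-aged replicate 3, limma called 9 of the 10 lower with age, against 5.5% of all genes in either direction. The medians were then -0.84 with age and 0.38 in treated against middle-aged cells. Summed, these genes reached 627721 to 779588 normalized counts (young), 107493 to 421313 (middle-aged) and 439406 to 563484 (treated). When each library was scaled by these genes, which moved the median of all genes with age by 1.43 on the log2 scale, 5 members changed sign with age, with log2 fold changes of 0.19 for Vegfa, 0.22 for Vegfc, 0.66 for Angpt2, 0.33 for Nrp1 and 0.24 for Nrp2. Pgf and Angptl4 stayed below 0, both at -0.84, and Vegfb was at 1.76 (adjusted p = 0.0579 in limma). The value of Vegfa above 0 rested on middle-aged replicate 3. Its scaled counts were 1383, 920 and 2743 in the middle-aged libraries and 1570, 1129 and 1324 in the young libraries. With this scaling and without middle-aged replicate 3, Vegfa lay below 0 with age. The value of Angptl4 below 0 also rested on that library. Scaled counts of Angptl4 were 3172, 2954 and 309 in the middle-aged libraries and 3082, 3165 and 1721 in the young libraries. With this scaling and without that library, Angptl4 was at 0.26 with age. The part of the share of stromal cells, of leukocytes and of middle-aged replicate 3 in the values of the members was not tested beyond these fits.

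**Figure D4:**
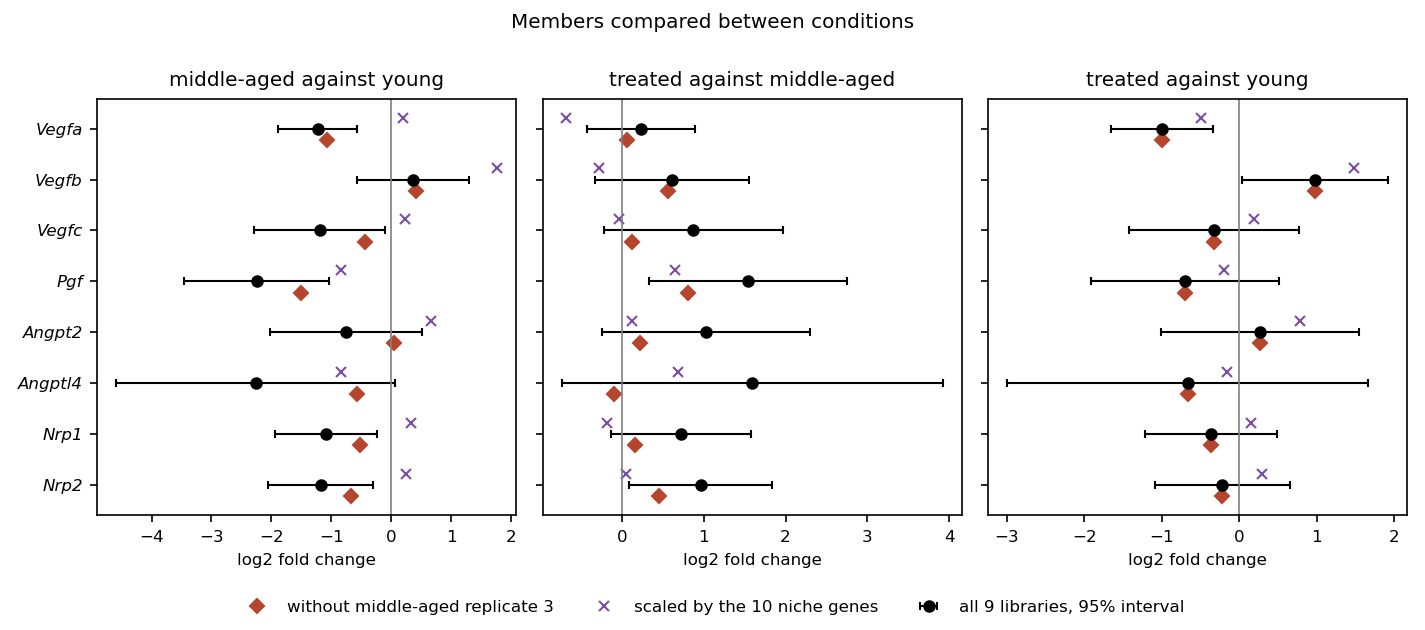
Log2 fold changes of the 8 members in the 3 comparisons, with the fit over all 9 libraries and its 95% interval in black, the fit without middle-aged replicate 3 as diamonds and the fit scaled by the 10 stromal niche genes as crosses. With age, 7 of 8 black points lie below 0, and 5 of these 7 lie above 0 after scaling by the niche genes.

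Partners of the members were followed in 10 lists, with 77 genes tested in all. By limma 0 of the 77 were called in any of the 3 comparisons. With age, 21 were lower and 4 higher at an unadjusted p under 0.05, against 13% and 10.4% of all genes, and the median log2 fold change was -0.61, or -0.19 without middle-aged replicate 3. In treated against middle-aged cells 7 were higher at that level, against 6.38% of all genes, and 0 lower. In treated against young cells 1 was higher and 1 lower, against 5.07% and 1.85%. edgeR called 0 in each comparison. DESeq2 called 11 with age (3 higher, 8 lower), 0 in treated against middle-aged and 1 in treated against young cells, against 11%, 0.293% and 1.99% of all genes. Without middle-aged replicate 3, limma called 7 of the 77 lower with age, among them Angpt1, Angptl2, Pparg and Cxcl12, and 5 lower in treated against young cells. That fit called 5.5% of all genes with age in either direction, with 392 of 14956 lower. In treated against young cells it called 379 of 14956 genes, 116 of them lower.

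The 3 VEGF receptors, which mark endothelium, were low. Kdr, the main signaling receptor of VEGF-A, averaged 30.9 (young), 46.0 (middle-aged) and 34.8 (treated) normalized counts. In the same order, Flt1 averaged 14.6, 23.1 and 57.7, and Flt4 averaged 14.6, 30.3 and 59.2. A count of 0 allowed a level of up to 1.79 to 8.25 normalized counts (3 reads) in a library, and the summed level of the 3 receptors ranged from 0 to 220.15 normalized counts over the middle-aged libraries. At an unadjusted p under 0.05 there were 0 of 3 in each comparison by limma.

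Of the angiopoietin system, Angpt1, the ligand that activates Tek, averaged 3673 ± 350 (young), 1687 ± 755 (middle-aged) and 2251 ± 188 (treated) normalized counts (SD, n = 3), with an adjusted p of 0.0685 in limma with age. In the same order, Angpt4 averaged 251, 224 and 347 normalized counts. The receptors were low, with means of 32.6, 18.2 and 30.1 for Tek and of 11.9, 18.6 and 20.4 for Tie1. All 4 of these genes had log2 fold changes below 0 with age in limma, at -1.56 to -0.45, although the mean count of Tie1 was higher in middle-aged than in young cells. In the angiopoietin-like family, 3 of the 6 other genes passed the filter. The highest were Angptl2, which averaged 1354, 318 and 584 normalized counts, and Angptl1, which averaged 755, 587 and 726.

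Plexins, which carry the semaphorin signal of neuropilins into the cell, were led by Plxna2, which averaged 4371 (young), 1879 (middle-aged) and 2746 (treated) normalized counts. Plxnd1 followed at 1515, 1007 and 1228, and Plxna1 at 479.7, 412 and 417. Plxna3, at 33.8, 34.1 and 37.5, and Plxna4, at 15.9, 136 and 75.0, were low. Of the class 3 semaphorins, the ligands on that side, 6 of 7 passed the filter, and their highest means were those of Sema3d, at 151, 38.5 and 19.1 normalized counts, and Sema3b, at 20.2, 66.3 and 76.0.

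Regulators that are known to act on several members were also listed. Epas1, a hypoxia-inducible factor subunit, averaged 10069 (young), 5855 (middle-aged) and 9889.9 (treated) normalized counts, and Hif1a, another, averaged 1778, 1256 and 1429. The 14 tested genes that hypoxia induces elsewhere had a median log2 fold change of -0.13 with age, close to that of all genes, and -0.17 without middle-aged replicate 3. At an unadjusted p under 0.05 in limma, 2 of these 14 genes were lower and 0 higher with age, against 13% and 10.4% of all genes. Ldha and Bnip3l were the most abundant of them, at 3257, 2373 and 3185 and at 1162, 1305 and 1153 normalized counts. The 11 tested lipid genes linked to the nuclear receptors of the PPAR family, which also induce Angptl4, had a median of -0.77 with age, or -0.33 without middle-aged replicate 3. They were led by Lpl, the lipase that Angptl4 inhibits, at 12478, 7506 and 9537 normalized counts, and by Pparg at 1307, 517 and 750.2.

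The other secreted angiogenic factors (13 tested) had a median log2 fold change of -1.13 with age, and the secreted inhibitors of angiogenesis (9 tested) had one of -1.35. Without middle-aged replicate 3 these medians were -0.21 and -0.65. At an unadjusted p under 0.05, 3 of the 13 and 5 of the 9 were lower with age and 0 of either list were higher, against 13% and 10.4% of all genes. Cxcl12, a chemokine of the stromal niche, was by far the most abundant factor, with averages of 496853, 203878 and 345284 normalized counts in the same order of conditions, followed by Cyr61, a matrix protein, at 14803, 8517 and 11246. Among the inhibitors, Thbs1, thrombospondin 1, was at 6788, 8267 and 9675 and Adamts1, a matrix protease, at 11876, 4690.1 and 6253.

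Genes whose values over the 9 libraries lay close to each member were found among 10280 genes with a mean of at least 50, as the root-mean-square difference of log2 values centred on each gene's mean. Close to Nrp1 lay Lamb1, a laminin chain, at 0.10 and Cdh11, a mesenchymal cadherin, at 0.10. Vegfc was closest to Fgfr1, a fibroblast growth factor receptor, at 0.09, Plxdc2 at 0.11 and Map3k14 at 0.12. Close to Nrp2 lay Clmp and Lancl1, each at 0.13. The neighbours of Angpt2 (Abcc1, Nedd4l and Col23a1) lay at 0.20 to 0.21, those of Vegfa (Chka, Zfp36l1 and Rnf216) and of Pgf (Ehd3, Id4 and C2) at 0.23 to 0.25, those of Angptl4 (Atp10d, Pdzrn3 and Daam2) at 0.27 to 0.33, and those of Vegfb (Sparcl1, Ncam1 and Cdyl) at 0.30. The 9 libraries share middle-aged replicate 3 as the lowest for most of these genes, and these distances are given as a description without a test.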

How the data were processed

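Bulk RNAseq was read from a table of 52459 genes in 9 libraries of LepR+ SSPCs, 3 per condition. The authors sequenced on a HiSeq 2500, made reads with bcl2fastq, aligned them with STAR to mm10 (GRCm38), counted exon reads per gene with featureCounts and normalized with DESeq2. Versions, gene annotation and strandedness are not given in the sources used here. The signal values, as deposited by the authors, are counts scaled by a DESeq2 size factor for each library, neither length-corrected nor logged. Reads were recovered with the factor at which a column became whole numbers (at least 99.998% of values within 0.1 of a whole number, size factors 0.364 to 1.67). Library totals were 9902613 to 20746804 reads, and a count of 0 was taken to allow up to 3 reads. The floors cover counting error only, whereas the 95% intervals come from limma and the spread among libraries. Without strand the reads of overlapping antisense genes cannot be told apart.

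Conditions were taken from the labels. They were compared in R 4.3.3 by limma 3.58.1, applied to log2 normalized counts with a pseudocount of 1, for the 14998 genes whose mean reached 10, with the empirical Bayes trend, all 9 libraries in 1 fit and Benjamini-Hochberg adjustment over all genes. Fold changes are on this scale, which understates low genes. Because values had been normalized, count tests (DESeq2 1.42.0 and edgeR 4.0.16, given the recovered reads) were alternatives. edgeR called 343 genes with age, 0 in treated against middle-aged and 2 in treated against young cells. Levels per kb were compared within libraries with exact sign-flip permutation tests over 28 pairs, and shares with exact permutation tests. Lengths came from GENCODE M21 (48007 symbols matched to 1 gene) and promoters from RefSeq (GRCm38.p6). Further alternatives changed the pseudocount (0.5 or 5), the filter (a mean of 50, or none) and the scaling (TMM, total, upper quartile or niche genes), left out antibody genes, or used no trend, robust moderation, 2 conditions alone, a replicate block, or 1 library fewer. Added after the data had been seen were other lengths and the omission of middle-aged replicate 3 combined with edgeR or with niche scaling.

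The members, lists and tests were chosen with earlier results of these data known. All members were named. From a list, the called genes with the largest change were named or, where no gene was called, the 2 genes with the highest mean, while receptors and plexins could all be named. Genes named for a call without middle-aged replicate 3 were chosen after their values were seen. The 3 genes with the most similar values were sought for each member, and some of them are not reported here. The code was tested on simulated data. Tables and plots were made in Python 3.11.15 with matplotlib 3.10.9, numpy 2.4.6, pandas 2.3.3 and scipy 1.17.1.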

Additional observations from a re-analysis of the deposited data

How the results depend on the processing

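Over all genes, the count called with age was 452 and became 234 with no filter, 65 with total scaling, 2951 with niche gene scaling, 78 without the trend, 46 with 2 conditions alone, 1655 with DESeq2, 4341 with niche gene scaling and without middle-aged replicate 3, and 28 to 2126 when 1 library was left out. Middle-aged replicates 1, 2 and 3 gave 2126, 28 and 822 when left out. In treated against middle-aged cells the 0 calls became 1 without the trend and 44 with DESeq2. In treated against young cells the 31 calls became 16 with no filter, 18 with total scaling, 17 with niche gene scaling, 0 with antibody genes left out, 19 without the trend, 429 with 2 conditions alone, 2 with edgeR, 298 with DESeq2, 1079 with niche gene scaling and 224 with edgeR when middle-aged replicate 3 was also left out, and 4 to 379 when 1 library was left out. With a replicate block, 284 genes were called with age, 0 in treated against middle-aged and 26 in treated against young cells, and 0 of the 8 members in each. Libraries with the same number had correlations of -0.0118 to 0.123 of their deviations from the group means, so the numbers were not taken to pair samples.

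Of the members, the 0 calls with age became 2 (Vegfa and Pgf) with a pseudocount of 5, a mean of at least 50, upper quartile scaling or DESeq2, 1 (Pgf) with edgeR and without middle-aged replicate 3, 1 (Angpt2, higher) with niche gene scaling and without it, and 0 to 4 when 1 library was left out. Over these fits with age the adjusted p of Vegfa was 0.00815 to 0.749 and that of Pgf 0.00352 to 0.187, and the log2 fold change of Pgf stayed below 0, at -2.76 to -0.68. Of all genes in either direction, a pseudocount of 5 called 518 of 14998 with age and a mean of at least 50 called 475 of 10719. Upper quartile scaling called 492 of 15069, DESeq2 1655 of 14998, and edgeR without middle-aged replicate 3 528 of 14956. The fit that called 4 members, without middle-aged replicate 1, called 2126 of 14998. In treated against young cells the 0 calls became 1 with 2 conditions alone (Vegfa) and 1 with niche gene scaling and without middle-aged replicate 3 (Vegfb, adjusted p = 0.0434 in limma). That last setting called 1079 of 14565 genes in treated against young cells, 1054 of them higher. With age, where it called Angpt2, it called 4341 of 14565 genes, 4271 of them higher.

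Niche gene scaling moved the median of all genes by 1.43 with age, -0.92 in treated against middle-aged and 0.50 in treated against young cells, and total scaling by -0.48, 0.51 and 0.032. It turned the sign with age of Vegfa (0.19), Vegfc (0.22), Angpt2 (0.66), Nrp1 (0.33) and Nrp2 (0.24). It turned treated against middle-aged for Vegfa (-0.68), Vegfb (-0.28), Vegfc (-0.035) and Nrp1 (-0.18), and treated against young for Vegfc (0.19), Nrp1 (0.15) and Nrp2 (0.29), the last 3 also without middle-aged replicate 3. With both changes, the values with age were 0.38 for Vegfc, 0.88 for Angpt2, 0.26 for Angptl4, 0.31 for Nrp1 and 0.16 for Nrp2, and in treated against middle-aged cells -0.25 for Vegfa, -0.20 for Vegfc, -0.10 for Angpt2, -0.41 for Angptl4 and -0.16 for Nrp1. Vegfa with age was negative with both changes, unlike with niche gene scaling alone. Total scaling gave -0.11 for Vegfb with age. Leaving out middle-aged replicate 3 turned Angpt2 with age to 0.051 (0.013 in edgeR), in a range of -1.20 to 0.051 when 1 library was left out. It turned Angptl4 in treated against middle-aged cells to -0.093 (-0.083 in edgeR), in a range of -0.093 to 2.51.

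Between members, the log2 ratios without division by length were -0.15 for Vegfc to Nrp1, -0.26 for Angptl4 to Nrp2 and -0.51 for Pgf to Angpt2, and with merged exons -1.003 for Nrp1 to Angptl4, -0.49 for Nrp2 to Vegfa and -0.16 for Pgf to Angpt2. With 1 library left out, Nrp2 to Vegfa ranged from -0.11 to 0.13 and Nrp1 to Angptl4 from -0.041 to 0.42. The Nrp1 share with age ranged from -2.69 to 4.12 percentage points and in treated against middle-aged cells from -6.33 to 0.48, and the Vegfa share with age from -6.33 to 5.69. The causes of these differences were not tested, and the few reads of a member in middle-aged replicate 3, at 13 to 305, limit every value that rests on that library.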
